A study of Mus musculus with 89 samples.

Results

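The data compared here are the expression changes across all genes in lungs of mice that lack surfactant protein D (SP-D) and were exposed to ozone or to air after an allergen. The members were the arrays whose titles place an SP-D-/- mouse 168 h after Aspergillus fumigatus (Af), the allergenic mould, and 12 h after ozone (4 arrays, replicates 1, 3, 4 and 6) or air (5 arrays, replicates 2, 3, 4, 5 and 6). They are 9 of the 89 arrays of a study that exposed SP-D-/-, C57BL/6 and BALB/c mice to ozone or air, alone or at set times after the allergen. Each array measured lung RNA, given in the labels as whole lung homogenate, with the left lobe taken after perfusion with saline. All 9 mice were SP-D-/- males 7 to 8 weeks old that received Af into the peritoneum on day 0 and day 7 and into the nose on day 13, so the deletion and the allergen were common to both groups. The ozone group then breathed 3 ppm ozone for 2 h, and the air group breathed air for 2 h. Nothing beyond the replicate numbers says that the arrays came from separate animals, so p-values measure the spread between arrays. In the main fit of each gene, that spread was estimated within the 18 groups of all 89 arrays, not from these 9 alone. With 4 arrays set against 5, the size of each change is known only roughly.

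SP-D is a collectin secreted by alveolar type 2 and club cells that binds fungal sugars and restrains airway inflammation. Ozone is an oxidant gas that reacts with the lining of the airways and alveoli, where it is known to call in neutrophils and to induce antioxidant and acute phase genes. Striated muscle, by contrast, builds its contractile filaments from myosin heavy and light chains, actin and troponin, and fast fibres use their own members of each family. Brown fat, which lies around the mediastinum, burns fuel as heat through the mitochondrial carrier Ucp1.

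The deleted gene was examined first. Sftpd, which encodes SP-D, had log2 signals of 5.47, 6.83, 7.75 and 5.44 in ozone replicates 1, 3, 4 and 6, against 7.23, 6.40, 6.99, 7.76 and 6.38 in air replicates 2 to 6. The groups overlapped, and the change of -0.58 ± 0.58 (log2, ozone minus air, SE of the fit) did not pass the test (adjusted p = 0.606 with limma). Wild-type C57BL/6 lungs of the same exposures had 9.20 to 11.04 after ozone and 10.05 to 11.15 after air, so all 9 arrays lay below them. The labels do not give the deleted part of the gene, so it is not known whether this 1 probe set lies in it. The 9 arrays held the defining markers of lung, with Sftpc of alveolar type 2 cells at 11.21 to 12.71 after ozone and 12.65 to 12.71 after air, and Scgb1a1 of club cells at 12.71 to 13.20 after ozone and 12.96 to 13.32 after air. The liver marker Alb lay between 4.27 and 4.76 after ozone and between 4.28 and 4.92 after air.

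The arrays of the ozone group were not alike. The spike level, which is the mean log2 signal of 10 bacterial control probe sets, was 11.08, 9.94, 10.08 and 11.58 in ozone replicates 1, 3, 4 and 6, against 8.85, 10.39, 8.95, 9.96 and 10.97 in air replicates 2 to 6. The mean was 10.7 ± 0.79 (SD, n = 4) after ozone and 9.82 ± 0.92 (SD, n = 5) after air (exact permutation test, two-sided p = 0.19, adjusted over 2 array measures p = 0.381, smallest p this design allows 0.0159). Ozone replicates 1 and 6 had the 2 highest values of the 9. They also stood apart on the first principal component of 5000 genes over all 89 arrays, at 73.9 and 117.2, with ozone replicates 3 and 4 at -14.4 and 15.0 and the air arrays between -35.5 and 36.02. This component held 41.8% of the variance, and across the 89 arrays, which share the platform and the normalization, its correlation with the spike level was 0.898. The difference between the 3′ and 5′ probe sets of beta-actin, a sign of RNA quality, averaged 2.73 ± 0.35 (SD, n = 4) after ozone and 2.57 ± 0.67 (SD, n = 5) after air (exact permutation test, p = 0.698). The leading genes and lists below are therefore given also without ozone replicates 1 and 6, a choice made after seeing the data. A fit with the spike level as a term, over all 89 arrays, called 65 genes, 55 of them among the 91 calls described next, and 18 of the 24 genes with the largest rises and falls kept their call in it.

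Of 15065 genes tested, 91 (0.604%) changed between ozone and air at an adjusted p under 0.05, with 33 that rose (0.219%) and 58 that fell (0.385%). At an unadjusted p under 0.05 there were 2521 genes (16.7%). The rises were led by genes of fast skeletal muscle and by the brown fat gene Ucp1, and the largest falls were of several kinds, from the Wnt scaffold Dixdc1 to genes of endothelium and matrix. Among the calls the 4 ozone arrays lay wholly above the 5 air arrays for 20 of the 33 rises and wholly below them for 25 of the 58 falls. Over all genes tested, 116 (0.77%) lay wholly above and 195 (1.29%) wholly below, and 56.7% had a negative change and 43.3% a positive one, called or not. The air mean of 18 rises was under the filter level of 4.45, near the background of the array, and so was the ozone mean of 9 falls, which makes their changes less certain in size. In 52 of the 58 falls ozone replicates 1 and 6 were both lower than replicates 3 and 4. The share of all genes with this order was not counted, so the order is not read as particular to the falls. The mean over all genes tested was also lower on replicates 1 and 6 (6.005 and 5.87) than on replicates 3 and 4 (6.25 and 6.17).

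The count of calls rested strongly on single arrays. It was 6 without ozone replicate 6, 16 without ozone replicate 1, 715 without ozone replicate 4 and 948 without ozone replicate 3, and it was 24, 25 and 42 without air replicates 4, 2 and 5. Without both ozone replicates 1 and 6 it was 10, of which 3 were among the 91. It was 310, all 91 among them, without 5 arrays of other groups whose Sftpd signal or strain genes went against their labels and which enter the estimate of the spread. A fit of only these 9 arrays called 4 genes, all of them muscle genes that rose (Myh1, Tnnc2, Klhl41 and Myh8). With cyclic loess between arrays the calls split into 44 rises and 42 falls, so falls did not outnumber rises under that scaling.

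The largest rises were in genes of the contractile filaments of fast skeletal muscle. Myh1, a fast myosin heavy chain, had log2 signals of 9.72, 10.88, 8.81 and 11.06 in ozone replicates 1, 3, 4 and 6, against 4.19, 3.74, 3.51, 3.81 and 4.51 in air replicates 2 to 6. All ozone arrays lay more than 4 log2 units above the highest air array. It rose by 6.16 ± 1.36 (log2, SE; adjusted p = 0.0155 with limma), and its other 3 probe sets differed by 6.86, 5.07 and 0.71 in the same direction. The air signals lay near the background, so the fold is a bound, at least 50.5-fold with every air signal under 4.45 set to that level. Tnnc2, the calcium-binding troponin C of fast fibres, had 9.39, 11.53, 9.30 and 11.18 after ozone, against 4.75, 4.44, 4.33, 4.92 and 4.14 after air, and rose by 5.84 ± 1.29 (adjusted p = 0.0155). Myh8, the perinatal myosin heavy chain, had 8.94, 9.79, 7.28 and 10.07 after ozone, against 4.29, 5.30, 4.23, 4.76 and 5.69 after air, and rose by 4.16 ± 1.04 (adjusted p = 0.0373). In all 3 genes ozone replicates 3 and 6 were the highest and replicate 4 the lowest of the ozone arrays. Without ozone replicates 1 and 6 the changes of Myh1, Tnnc2 and Myh8 were 5.89, 5.90 and 3.68, close in size but with 2 ozone arrays no longer called (adjusted p = 0.545, 0.41 and 1.0 with limma). Probe sets of related myosin genes can bind each other's transcripts, which was not tested here.

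Myh1 and Myh8 lie in 1 cluster on chromosome 11, and their promoters are shown because both genes rose and share a stretch of sequence. The sequences are RefSeq's, build GRCm38.p6, plus strand, 250 bases before to 50 bases after the annotated start, at chr11:67199852-67200151 for Myh1 and chr11:67276874-67277173 for Myh8. Capitals mark the longest run of bases common to both.
Myh1: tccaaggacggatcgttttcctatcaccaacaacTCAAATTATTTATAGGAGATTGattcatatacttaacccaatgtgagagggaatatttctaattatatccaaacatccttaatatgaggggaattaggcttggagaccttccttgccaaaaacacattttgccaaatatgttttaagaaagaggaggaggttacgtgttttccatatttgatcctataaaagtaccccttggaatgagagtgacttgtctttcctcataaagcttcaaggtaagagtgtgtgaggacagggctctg
Myh8: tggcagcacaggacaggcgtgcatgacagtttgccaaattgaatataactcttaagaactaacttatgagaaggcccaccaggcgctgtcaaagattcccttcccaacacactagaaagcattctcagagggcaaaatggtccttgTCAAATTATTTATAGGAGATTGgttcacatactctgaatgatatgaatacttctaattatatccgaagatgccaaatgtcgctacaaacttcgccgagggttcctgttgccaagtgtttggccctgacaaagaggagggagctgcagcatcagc
The common run is 22 bases long and stands 216 to 195 bases before the start in Myh1 and 104 to 83 bases before it in Myh8. It occurred in 2 of the 32851 promoters of the table (0.0061%), these 2. It contains the TATA box letters TATAAA on the opposite strand, and Myh1 holds TATAAA a second time close to its start. Read on both strands, TATAAA occurred in 13.6% of all promoters and in 4 of the 6 skeletal muscle list genes with an entry (Acta1, Myh1, Myh2 and Myh4). CAGCTG, an E-box that reads the same on both strands, occurred in 16.3% of all promoters and in 4 of the 6 (Ckm, Mylpf, Acta1 and Myh4). For the MEF2 site a narrow form was searched, which starts with C, ends with G and leaves its 4 middle bases free. This form occurred in 3.69% of all promoters and in 0 of the 6. Forms with other end letters were not counted over the promoters. The common run does hold such a form, TTATTTATAG, which differs from the narrow form only in starting with T. These letters overlap the TATAAA of the run named above. The count of 0 therefore does not show that these promoters lack a MEF2 site. These matches describe the letters only.

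Other muscle genes moved with them. Klhl41, a sarcomere-stabilising Kelch protein, had 7.41, 7.13, 6.42 and 8.13 after ozone, against 3.77, 4.11, 3.96, 3.52 and 3.07 after air, and rose by 3.59 ± 0.77 (adjusted p = 0.0136). Mylpf and Myl1, the regulatory and essential light chains of fast myosin, rose by 3.55 ± 0.93 (adjusted p = 0.0459) and by 2.56 ± 0.65 (adjusted p = 0.0416). Myom1, a protein of the M band of the sarcomere, rose by 2.13 ± 0.56 (adjusted p = 0.0471), and Itgb1bp2, a muscle protein that binds integrin, rose by 2.35 ± 0.59 (adjusted p = 0.0376). Their 4 ozone arrays lay above all 5 air arrays. Without ozone replicates 1 and 6 the changes of Klhl41, Mylpf, Myl1, Myom1 and Itgb1bp2 were 3.09, 3.71, 2.71, 1.94 and 2.91, none of them called (adjusted p from 0.159 to 1.0). Acta1, skeletal muscle actin, had 6.29, 11.31, 8.65 and 10.93 after ozone, against 4.75, 4.21, 4.72, 3.71 and 4.08 after air. Its change of 5.0 ± 1.34 lay between those of Klhl41 and Myh1 but missed the threshold (adjusted p = 0.0533).

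**Figure D1:**
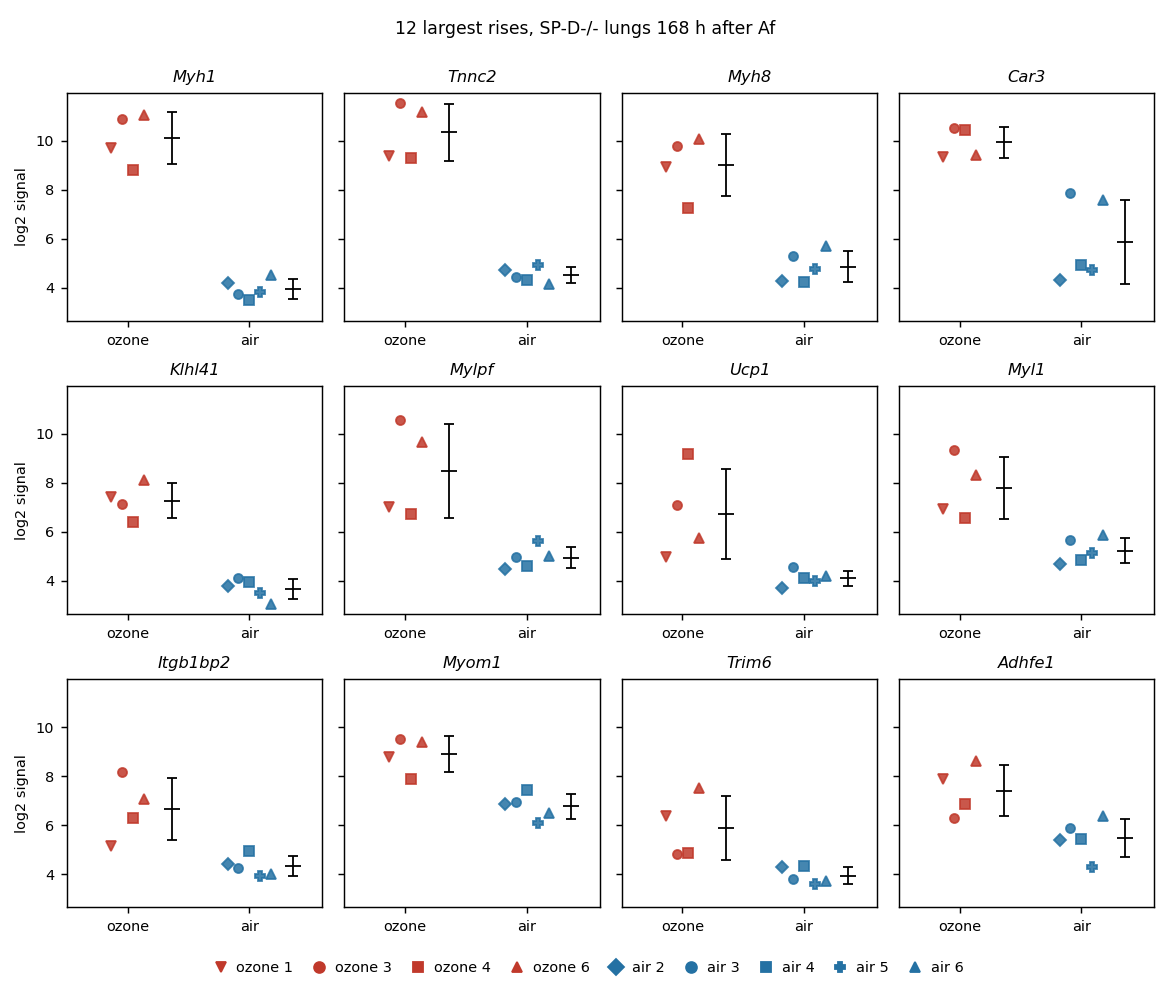
Log2 signal (y axis) of the 12 genes with the largest rises on each of the 9 SP-D-/- arrays 168 h after Af, ozone left of air, 1 symbol per replicate, with the mean and SD beside each group. For Myh1, Tnnc2, Myh8 and Klhl41 the 4 ozone points stand clear of the 5 air points, while for Ucp1 ozone replicates 4 and 3 are the highest.

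The list of skeletal muscle genes was counted next. Of its 8 genes, 2 rose (Myh1 and Mylpf), all 8 had positive changes, and 7 had all ozone arrays above all air arrays. The median change was 3.63, beside -0.09 over all genes tested, and it was 3.65 without ozone replicates 1 and 6 and 3.67 in a fit that had the spike level as a term. The mean log2 signal of the list was 6.82, 9.17, 6.70 and 8.70 in ozone replicates 1, 3, 4 and 6, against 4.41 to 4.91 in the air arrays. Muscle signal was not confined to this ozone group: 10 of the other 80 arrays had a list mean at or above 6.70, the highest at 11.09. They were 3 of 5 BALB/c arrays after air alone, 2 of 6 C57BL/6 arrays after ozone alone, and 1 array each of 5 other groups (C57BL/6 after air, C57BL/6, BALB/c and SP-D-/- 24 h after Af with air, and BALB/c 168 h after Af with ozone). None of the 9 SP-D-/- arrays without allergen, 4 after ozone and 5 after air, was among them. The cardiac muscle list, by contrast, had 0 of 9 genes called and a median of -0.08, which was 0.47 without ozone replicates 1 and 6. In homogenised tissue, a change in the number of cells of a type and a change in RNA per cell cannot be told apart, and how much skeletal muscle each lobe carried was not measured.

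Genes of fat were highest in ozone replicates 3 and 4, the ozone arrays with the lower spike levels. Ucp1, the uncoupling protein of brown fat, had log2 signals of 4.96, 7.09, 9.17 and 5.76 in ozone replicates 1, 3, 4 and 6, against 3.70, 4.57, 4.10, 3.98 and 4.18 in air replicates 2 to 6. All ozone arrays lay above all air arrays, and it rose by 2.64 ± 0.51 (adjusted p = 0.00436), or at least 4.84-fold with air signals under 4.45 set to that level. It kept its call without each single array (adjusted p at most 0.026) and lost it in the fit of only these 9 arrays (adjusted p = 0.596). Without ozone replicates 1 and 6 its change was 4.02 (adjusted p = 1.32e-05), more than 1.5 times as large. Among the other 80 arrays 13 reached the lowest of the ozone values and the highest was 7.21, below ozone replicate 4. Car3, a carbonic anhydrase abundant in fat and slow muscle, had 9.33, 10.53, 10.46 and 9.41 after ozone, against 4.31, 7.88, 4.92, 4.71 and 7.58 after air, and rose by 4.05 ± 0.88 (adjusted p = 0.014), with 4.61 and no call without ozone replicates 1 and 6 (adjusted p = 0.106). The other probe sets of Car3 had smaller changes in the same direction, of 2.02, 2.00 and 1.71. Dgat2, which makes triglyceride, had 6.38, 7.62, 7.88 and 6.83 after ozone, against 4.61, 6.01, 5.09, 5.06 and 5.85 after air, and rose by 1.85 ± 0.44 (adjusted p = 0.03), with 2.42 and its call kept without ozone replicates 1 and 6 (adjusted p = 0.0479). The other probe set of Dgat2 had a change of 0.91. In SP-D-/- without allergen Dgat2 was 5.96 to 7.08 after air, which overlapped these ozone values, and 4.69 to 6.85 after ozone.

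Of the 5 fat cell genes tested, 1 rose (Ucp1), 4 had positive changes, and the median change was 1.21, or 1.76 without ozone replicates 1 and 6. Adipoq, the hormone adiponectin of fat cells, had 3.23, 7.41, 7.45 and 2.35 after ozone, against 2.25 to 2.61 after air. It was high in ozone replicates 3 and 4 and near the background in the others (change 2.65 ± 0.74, adjusted p = 0.0623). Plin4, which coats lipid droplets, had a change of 1.21 ± 0.37 (adjusted p = 0.0854). The genes called without ozone replicates 1 and 6 were largely of this kind. Of those 10, 9 rose: Ucp1, Adipoq, the brown fat lipid droplet protein Cidea (change 4.32, adjusted p = 1.32e-05), the fat cell gene Adig (2.39, adjusted p = 0.00357), Dgat2, the oxidising enzyme Cyp2e1 (4.03, adjusted p = 0.0188), the epoxide hydrolase Ephx2 (1.90, adjusted p = 0.0479), the chemokine Ccl25 and the T cell signalling gene Themis. These were named after their values were seen. A brown fat list written after the data were seen (9 genes tested) had mean signals of 5.71, 7.12, 7.97 and 5.26 in ozone replicates 1, 3, 4 and 6, against 4.98 to 5.60 in the air arrays and 4.62 to 7.20 in the other 80 arrays. Of the 9 genes, 1 was called with all arrays and 8 had positive changes. The median change was 1.17, or 1.96 without ozone replicates 1 and 6. The brown fat genes Dio2 and Kcnk3 had changes of 0.22 and -0.14, and of 0.30 and -0.14 without those arrays.

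The remaining large rises were Trim6, a ubiquitin ligase, and Adhfe1, an iron-containing alcohol dehydrogenase-like enzyme. Trim6 had 6.35, 4.80, 4.84 and 7.50 after ozone, against 4.27, 3.78, 4.32, 3.60 and 3.70 after air, and rose by 1.94 ± 0.37 (adjusted p = 0.00436). Adhfe1 rose by 1.94 ± 0.47 (adjusted p = 0.0332), with overlap between the groups. Both were highest in ozone replicates 1 and 6, and without these arrays their changes were 0.89 and 1.10 and did not pass the test.

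The 12 largest falls were led by Dixdc1, Fstl1, Prdm8, Plvap and F2r, genes of different functions. Fstl1, a secreted glycoprotein of mesenchymal cells, had log2 signals of 5.58, 7.95, 7.83 and 3.44 in ozone replicates 1, 3, 4 and 6, against 9.16, 8.50, 9.10, 8.75 and 8.16 in air replicates 2 to 6. All ozone arrays lay below all air arrays, replicates 3 and 4 only just, and it fell by 2.53 ± 0.58 in log2 units (adjusted p = 0.02). Plvap, which forms the diaphragms of endothelial caveolae, had 6.87, 9.15, 9.01 and 3.58 after ozone, against 9.60, 10.16, 9.64, 9.16 and 9.28 after air, and fell by 2.42 ± 0.61 (adjusted p = 0.0387). F2r, the thrombin receptor, had 7.53, 9.47, 9.47 and 3.13 after ozone, against 9.77, 9.42, 10.07, 10.05 and 9.46 after air, and fell by 2.35 ± 0.50 (adjusted p = 0.013). For F2r, ozone replicates 3 and 4 lay within the range of the air arrays, and the change rested on replicates 1 and 6.

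In several genes of matrix and signalling proteins ozone replicates 1 and 6 were again the lowest 2 arrays, in either order. Efemp1, the matrix protein fibulin-3, had 6.67, 9.82, 9.23 and 5.20 after ozone, against 9.70 to 10.17 after air, and fell by 2.23 ± 0.44 (adjusted p = 0.00436). Olfml3, a secreted olfactomedin-like protein, had 4.76, 7.68, 7.53 and 4.88 after ozone, against 8.23 to 8.56 after air, and fell by 2.14 ± 0.40 (adjusted p = 0.00436), with all ozone arrays below all air arrays. Col14a1, a collagen that binds fibrils, had 3.36, 6.03, 3.77 and 3.35 after ozone, against 6.76, 5.72, 6.60, 7.01 and 5.57 after air, and fell by 2.20 ± 0.57 (adjusted p = 0.0459). Dixdc1, a scaffold of Wnt signalling, had 2.74, 5.26, 3.92 and 2.61 after ozone, against 6.08 to 6.29 after air, and fell by 2.55 ± 0.62 (adjusted p = 0.0332). Its other 3 probe sets, of low signal, had changes of 0.04, 0.15 and -0.09, so the fall of Dixdc1 rests on 1 probe set.

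The other large falls were of different kinds. Aqp1, the water channel of lung capillaries, fell by 2.00 ± 0.41 (adjusted p = 0.00794), and F11r, the junctional adhesion molecule JAM-A, fell by 1.98 ± 0.50 (adjusted p = 0.0404). Acer2, a ceramidase of the Golgi, had 3.42, 7.76, 7.77 and 3.52 after ozone, against 7.18 to 8.24 after air, and fell by 2.13 ± 0.46 (adjusted p = 0.0136), with ozone replicates 3 and 4 inside the air range. Sft2d1, a Golgi transport protein, fell by 2.08 ± 0.45 (adjusted p = 0.0136). Prdm8, a transcriptional regulator with a PR domain, had 3.57, 4.62, 6.22 and 4.54 after ozone, against 7.97, 6.66, 7.81, 7.18 and 6.29 after air, and fell by 2.44 ± 0.58 (adjusted p = 0.0286). Every ozone array lay below every air array for Prdm8, and its ozone replicates 3 and 6 were alike.

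**Figure D2:**
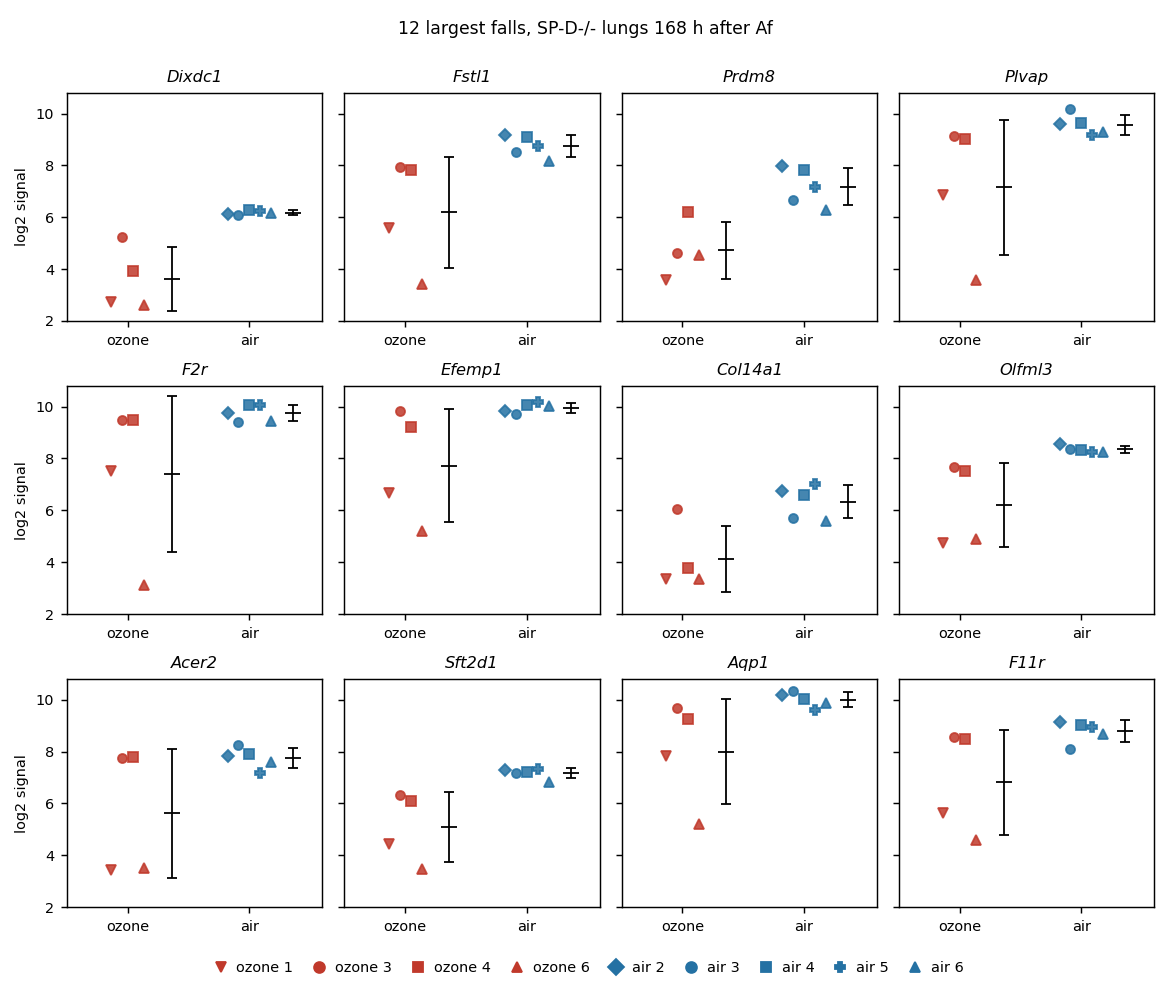
Log2 signal (y axis) of the 12 genes with the largest falls on each of the 9 SP-D-/- arrays 168 h after Af, ozone left of air, 1 symbol per replicate, with the mean and SD beside each group. For F2r, Acer2 and F11r ozone replicates 3 and 4 reach the level of the air arrays, and replicates 1 and 6 lie far below them.

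Without ozone replicates 1 and 6, none of the 12 largest falls passed the test, and their changes ranged from -1.76 for Prdm8 to 0.017 for Acer2. Without ozone replicate 6 alone the changes of Aqp1, Efemp1, F11r, F2r, Fstl1 and Plvap were -1.07, -1.39, -1.23, -0.93, -1.61 and -1.23, each over 1.5 times smaller in size, and that of Acer2 was -1.40 without ozone replicate 1. With all arrays kept and the spike level as a term in the fit, the 12 changes ranged from -2.13 for Fstl1 (adjusted p = 0.0225) to -1.66 for F11r (adjusted p = 0.0579), and 10 of the 12 kept their call, the exceptions being Plvap and F11r. Of the 24 genes with the largest rises and falls, 1 (Ucp1) kept its call without ozone replicate 6, and 7 without ozone replicate 1. The same count was 21 without ozone replicate 3 and 24 without ozone replicate 4, and without air replicates 2, 3, 4, 5 and 6 it was 11, 20, 11, 13 and 21. All 24 genes kept their direction in each of these 9 fits.

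Among the lists of lung cells the endothelial and matrix lists were lowest on ozone replicates 1 and 6. All 15 endothelial genes had negative changes, 1 of them fell (Plvap), and their median was -1.40, against -0.12 without ozone replicates 1 and 6 and -1.16 with the spike level as a term. The mean signal of the list was 6.06, 8.22, 8.01 and 5.24 in ozone replicates 1, 3, 4 and 6, and the air arrays lay between 7.78 and 8.64. Cldn5, the tight junction protein of endothelium, had 8.57, 10.40, 10.32 and 7.87 after ozone, against 10.52 to 10.91 after air (change -1.40 ± 0.37, adjusted p = 0.0504). Gpihbp1, which holds lipoprotein lipase on capillaries, had a change of -2.05 ± 0.61 (adjusted p = 0.0809). The defining endothelial markers Pecam1 and Cdh5 ranged from 5.59 to 6.93 and from 4.18 to 6.98 after ozone, against 6.06 to 7.56 and 6.52 to 7.31 after air.

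Of the 17 collagen and matrix genes, 2 fell (Fn1 and Col14a1), 15 had negative changes, and the median was -1.34, or -0.51 without ozone replicates 1 and 6 and -0.98 with the spike level as a term. Fn1, fibronectin, had 6.87, 8.28, 8.43 and 6.85 after ozone, against 9.52, 8.70, 9.13, 9.27 and 8.59 after air, and fell by 1.43 ± 0.35 (adjusted p = 0.0332), with every ozone array below every air array, and its change was -0.69 and not called without ozone replicates 1 and 6. Eln, elastin, had a change of -1.41 ± 0.38 (adjusted p = 0.056). Col1a2, a chain of collagen I, had a change of 0.34 (adjusted p = 0.605). Of genes outside the lists, picked out after their values were seen, Col6a2, a chain of collagen VI, fell (-1.94, adjusted p = 0.0038), and so did Fbln5, an elastic fibre protein (-1.90, adjusted p = 0.0204). Without ozone replicates 1 and 6 their changes were -0.83 and -0.97 and were not called. The fibroblast and smooth muscle list had 0 of 12 genes called and a median of -0.44, or 0.05 without ozone replicates 1 and 6, and its members Dcn and Lum, small proteoglycans of matrix, had changes of 0.14 and -0.12.

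**Figure D3:**
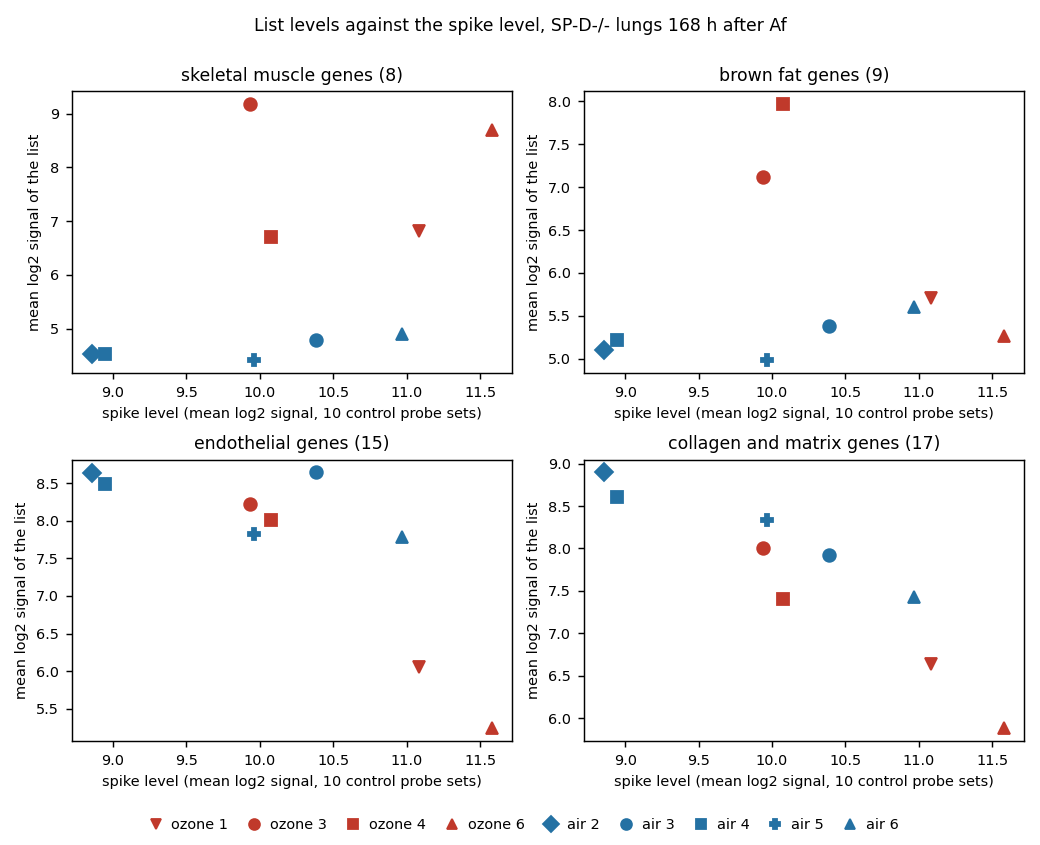
Mean log2 signal of 4 gene lists (y axes) against the spike level of each of the 9 arrays (x axes), ozone in red and air in blue, 1 symbol per replicate. The skeletal muscle list is high on all 4 ozone arrays, at spike levels from 9.94 to 11.58, and the lowest spike levels are those of air arrays. The brown fat list is high on ozone replicates 3 and 4. The endothelial and matrix lists are lowest on ozone replicates 1 and 6, which have the highest spike levels.

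Immune cell and epithelial lists gave few calls, as did all genes tested (0.604%). In the monocyte and interstitial macrophage list 1 of 11 genes fell: Adgre1, the macrophage receptor F4/80, had 4.06, 4.81, 4.51 and 3.82 after ozone, against 6.67, 4.88, 6.33, 6.48 and 6.35 after air (-1.84 ± 0.47, adjusted p = 0.0387). The median of the list was -0.65, or -0.12 without ozone replicates 1 and 6. Of 12 dendritic cell and MHC class II genes 10 had negative changes and none was called, with a median of -0.88, or -0.47 without ozone replicates 1 and 6. H2-Ab1, an MHC class II chain, had 9.60, 9.73, 10.14 and 6.84 after ozone, against 10.27 to 10.96 after air (-1.56 ± 0.44, adjusted p = 0.0626). The 9 complement genes had a median of -1.19 with none called, which was -0.54 without ozone replicates 1 and 6, and the 7 mesothelial genes a median of -0.79, which was -0.77 without ozone replicates 1 and 6. Upk3b, a mesothelial membrane protein, had 5.67, 6.03, 5.88 and 3.42 after ozone, against 6.94 to 8.11 after air, with no overlap (-2.39 ± 0.69, adjusted p = 0.0692).

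Among epithelial lists, the alveolar type 2 and surfactant genes had 11 of 13 negative changes and a median of -0.69, the alveolar type 1 genes 11 of 11 and -0.45, the club and secretory genes 11 of 14 and -0.47, and the ciliated cell genes 9 of 10 and -0.53. None of these genes was called. Without ozone replicates 1 and 6 the medians were -0.10, 0.05, -0.05 and -0.33. In the xenobiotic and aldehyde metabolism list 1 of 15 genes fell, Ephx1, the microsomal epoxide hydrolase (-1.79 ± 0.39, adjusted p = 0.0136), and the median of -0.76 was 0.13 without ozone replicates 1 and 6. Atp6v1b1, a proton pump subunit of specialised epithelial cells, had 3.10, 2.70, 2.95 and 2.78 after ozone, against 4.78, 3.95, 5.13, 4.82 and 4.87 after air. It fell by 1.83 ± 0.33 (adjusted p = 0.0038) with every ozone array below every air array, and it was the 1 gene that fell without ozone replicates 1 and 6 (-1.89, adjusted p = 0.0419). Its ozone values and its lowest air value lay under the filter level of 4.45, so the size of this fall is less certain. In SP-D-/- without allergen its mean was also lower after ozone, at 2.89 against 4.02 after air.

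The gene groups that ozone is best known to induce held no calls with limma, beside 0.604% of all genes tested. At that share, lists of this size would seldom hold a call. None of 18 NRF2 antioxidant genes was called, with a median of 0.03, or 0.10 without ozone replicates 1 and 6. Nqo1, a quinone reductase of that group, had 7.11, 8.53, 6.96 and 7.18 after ozone, against 5.80, 7.09, 6.11, 5.37 and 7.26 after air (1.12 ± 0.48, adjusted p = 0.233). None of 13 inflammatory chemokine and cytokine genes was called (median 0.24, or 0.14 without those arrays, 0 with an unadjusted p under 0.05). Nor was any of 11 acute phase and metallothionein genes (median -0.17, 0 at that level) or of 12 neutrophil genes (median 0.27, 1 at that level). The acute phase median turned to 0.50 without ozone replicates 1 and 6 and to 0.30 with the spike level as a term, and the neutrophil median was 0.62 and 0.46. The acute phase protein Saa3 had 9.45, 10.39, 9.65 and 8.83 after ozone, against 9.29, 7.54, 9.53, 9.78 and 8.82 after air, a gene named after its values were seen. The neutrophil calgranulin S100a9 had 11.05, 9.20, 11.10 and 8.39 after ozone, against 9.27, 8.76, 10.44, 8.22 and 8.58 after air (0.88 ± 0.52, adjusted p = 0.37).

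Genes of the allergic response held no calls with limma, beside 0.604% of all genes tested. Retnla, a type 2 macrophage and airway product, had 12.28, 12.59, 12.59 and 12.23 after ozone, against 12.46 to 13.09 after air, and was named after its values were seen. Chil3, a chitinase-like protein of alternatively activated macrophages, had 10.81, 10.59, 11.61 and 8.26 after ozone, against 10.42 to 11.89 after air (-0.97 ± 0.44, adjusted p = 0.247). The type 2 cytokine Il13 lay near the background, at 4.47 to 5.49 after ozone and 4.08 to 4.56 after air. Of 17 type 2 and alternatively activated macrophage genes 13 had negative changes and none was called (4 lower with an unadjusted p under 0.05), with a median of -0.51, or -0.24 without ozone replicates 1 and 6. The goblet cell and mucus list had 10 of 13 negative changes, none called and a median of -0.47, or -0.39 without ozone replicates 1 and 6.

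**Figure D4:**
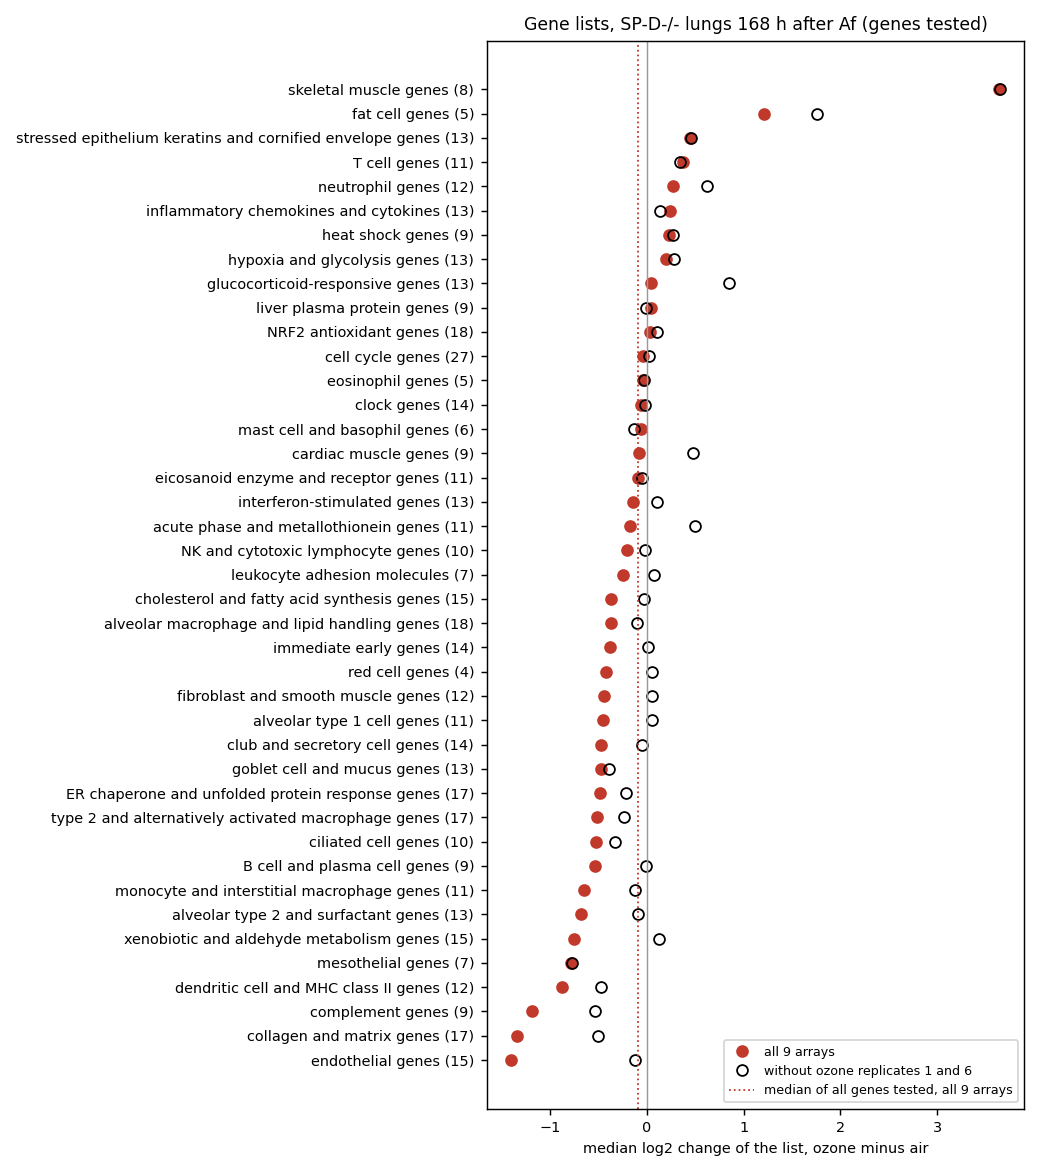
Median log2 change, ozone minus air, of 41 gene lists (x axis) with all 9 arrays (red) and without ozone replicates 1 and 6 (open circles), with the number of genes tested in brackets and the median of all genes tested as a dotted line at -0.09. The skeletal muscle list stands at 3.63 and 3.65, while the endothelial list at -1.40 lies at -0.12 without the 2 arrays.

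The ozone response was set against that of the wild-type strains at the same time. Ozone against air 168 h after Af gave 9 calls in C57BL/6 (0.0597%, 6 arrays against 4), 8 of them falls (0.0531%) and 1 a rise (0.00664%), and 3 in BALB/c (0.0199%, 4 arrays against 6), 2 of them rises (0.0133%). The difference between responses, SP-D-/- minus C57BL/6, passed the test for 6 genes (0.0398%), higher for 2 (0.0133%) and lower for 4 (0.0266%). Car3 differed by 5.75 ± 1.22 (adjusted p = 0.0282): it rose in SP-D-/-, and in C57BL/6 its values were 4.20 to 7.29 after ozone and 4.10 to 9.20 after air. Tmem35a, a membrane protein that helps assemble nicotinic receptors, differed by -2.64 ± 0.50 (adjusted p = 0.00607), with 3.43 to 3.71 after ozone and 4.23 to 5.30 after air in SP-D-/-, against 4.29 to 7.24 after ozone and 3.73 to 4.78 after air in C57BL/6. Efcab10, an EF-hand protein, differed by -2.36 ± 0.44 (adjusted p = 0.00607), and Atp6v1b1 by -2.16 ± 0.46 (adjusted p = 0.0282).

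A variable segment of the immunoglobulin kappa light chain differed by 3.04 ± 0.60 (adjusted p = 0.00908), and here the change lay in C57BL/6. Its values in SP-D-/- were 3.39 to 5.59 after ozone and 3.65 to 5.19 after air, against 3.73 to 4.74 after ozone and 6.17 to 8.32 after air in C57BL/6. The sixth gene, AU021092, carries a clone name and was passed over by the rule for named genes (-2.19 ± 0.41, adjusted p = 0.00607). Against BALB/c 1 gene passed (0.00664%): Dnajb13, a protein of cilia and sperm tails, differed by -2.53 ± 0.50 (adjusted p = 0.0382), with 2.90 to 5.07 after ozone and 4.87 to 6.74 after air in SP-D-/-, against 4.0 to 5.30 after ozone and 2.94 to 3.93 after air in BALB/c. BALB/c ozone replicate 6 is 1 of the arrays of doubtful label, and without it 2 genes passed, Dnajb13 among them. The BALB/c count was 23 without SP-D-/- ozone replicate 3. It was 0 without SP-D-/- ozone replicate 1 or 6, SP-D-/- air replicate 3, 4 or 6, BALB/c ozone replicate 3, 4 or 5, or BALB/c air replicate 2, 4 or 6. The C57BL/6 count was 11, 16 and 12 without SP-D-/- ozone replicates 1, 4 and 6, 13 without C57BL/6 ozone replicate 1, and 0 and 3 without C57BL/6 air replicates 6 and 4.

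The response was also set against ozone without allergen in the same strain, where 15 genes were called (0.0996%, 4 arrays against 5), 14 of them falls (0.0929%). No gene passed the test of the difference with limma (0%). At an unadjusted p under 0.05 there were 935 of 15065 genes, where a share of 0.05 would pass by chance alone. These 935 are therefore not read as differences. Ozone against air after Af had 2521 genes at that level. Without single arrays 2, 8 and 3 genes passed at an adjusted p under 0.05 (ozone replicates 3, 4 and 6 after Af). Without ozone replicate 5 of the mice without allergen 1 gene passed. The smallest p-values were those of Car3 (5.73 ± 1.25), Ephx2 (2.35 ± 0.51) and Dgat2 (2.76 ± 0.62), none of which passed. Car3 had 5.98 to 8.48 after ozone and 7.92 to 10.43 after air without allergen. Across the 15065 genes, which are not independent of each other, the changes of SP-D-/- after Af had a correlation of 0.529 with those of SP-D-/- without allergen, 0.512 with those of C57BL/6 and 0.106 with those of BALB/c, comparisons that share no arrays. The spike level also varied among these arrays. It was 8.54 to 11.43 after ozone and 8.12 to 11.12 after air in SP-D-/- without allergen, 8.11 to 11.33 after ozone and 8.18 to 9.74 after air in C57BL/6, and 8.83 to 11.06 after ozone and 8.25 to 11.36 after air in BALB/c. Its part in the correlations was not tested.

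**Figure D5:**
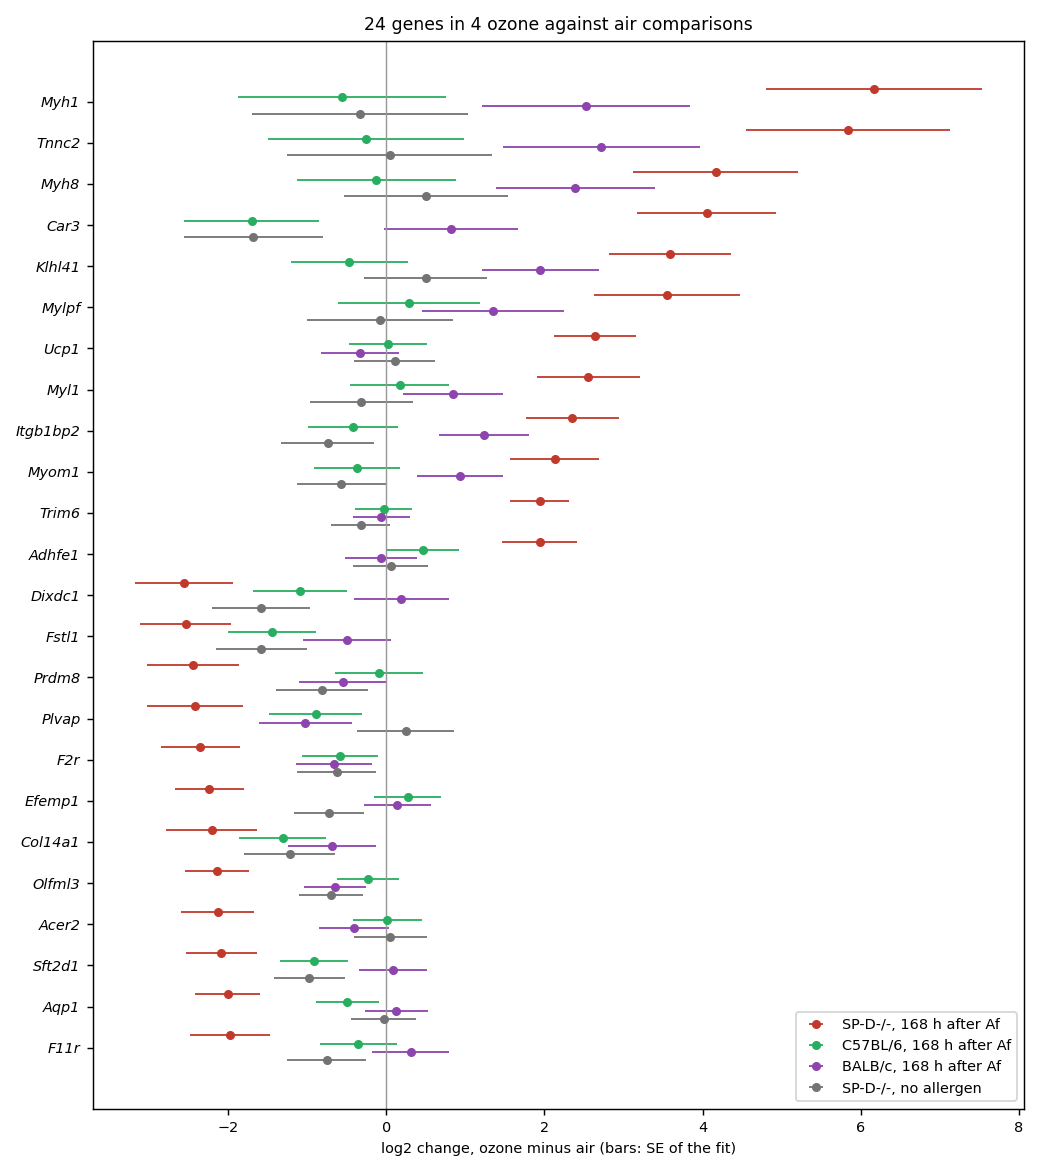
Log2 change, ozone minus air (x axis, bars for the SE of the fit), of the 12 largest rises and 12 largest falls in SP-D-/- 168 h after Af and of the same genes in C57BL/6 and BALB/c 168 h after Af and in SP-D-/- without allergen. Myh1 stands at 6.16 in SP-D-/- after Af, at -0.56 in C57BL/6, at -0.33 in SP-D-/- without allergen and at 2.53 in BALB/c. In BALB/c its signal was 6.57 ± 3.34 (SD, n = 4) after ozone, from 3.61 to 10.44, against 3.60 to 4.44 after air. A muscle list mean at or above 6.70, the lowest of the SP-D-/- ozone arrays, was found on 1 of those 4 ozone arrays.

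The 24 genes had been chosen for their size in SP-D-/-, so their smaller changes elsewhere are a description. Myh1 had a change of -0.56 ± 1.31 in C57BL/6, of 2.53 ± 1.31 in BALB/c and of -0.33 ± 1.36 in SP-D-/- without allergen. Those of Ucp1 were 0.02, -0.33 and 0.11 in the same order, those of Fstl1 -1.45, -0.49 and -1.58, and those of Plvap -0.89, -1.02 and 0.25. None of these passed the test in its own comparison. Of the 91 called genes, 66 had the same sign in C57BL/6 (72.5%, beside 71.5% of all 15065 genes), 62 in BALB/c (68.1%, beside 51.3%) and 68 in SP-D-/- without allergen (74.7%, beside 70.9%).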

How the data were processed

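Lung RNA was amplified with the NuGEN system and hybridised to GeneChip HT Mouse430PM arrays, per the labels' protocols. The authors deposited log2 signals of 45141 probe sets on 89 arrays, and the values show that every array has the same distribution (median 4.904, range 1.86 to 13.5), and which software normalised them is not given in the sources used here. GEO's platform annotation gave 28898 probe sets 1 gene symbol, 551 several and 15588 none, beside 104 controls. Each of 17097 genes was represented by its probe set with the highest mean, and 15065 genes were tested, those that exceeded a log2 signal of 4.45 (the 40th percentile) on 4 or more arrays. The 18 group means of all 89 arrays were fitted with limma 3.58.1 in R 4.3.3, which gives the adjusted p of each gene (two-sided, Benjamini-Hochberg over all genes tested, called under 0.05). Changes are log2 ozone minus air ± SE. Array measures were compared by exact permutation (scipy). The fit was tested on simulated data.

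The comparison, 41 gene lists, tests and rule for naming genes were chosen with earlier results of these data known. The rule took the 12 largest rises and falls, the 3 members of each list with the largest absolute moderated t, and the 6 largest called differences between responses or, with none, the 3 smallest p, passing over gene models and clone names. Lists are described by counts and medians, and their results are in the report, the plot of list medians or the closing section. Alternatives were cyclic loess, the mean of probe sets, no filter, only the groups compared, a replicate block, a trended and robust prior, array weights, spike level or actin difference as a covariate, leaving out each array, and leaving out 5 arrays of other groups whose Sftpd signal or strain genes went against their labels. None of the 9 arrays compared was among those 5. No 2 of the 9 arrays held the same values. Leaving out 2 arrays, and both covariates together, were added after seeing the data. Replicate numbers 3, 4 and 6 occur in both groups, and the correlations of their deviations were -0.30, 0.39 and 0.37, so they were not taken as pairs.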

Additional observations from a re-analysis of the deposited data

Results flagged for a closer look

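Single arrays far from the rest of their group were looked for in 216 sets of values with Dixon's test, which chance alone would pick out in about 1 in 20 sets, and 11 were found. After ozone, replicate 6 was low for the complement gene C4b (6.30, others 8.55 to 8.95), for H2-Ab1 (6.84, others 9.60 to 10.14), for the dendritic cell receptor Flt3 (3.80, others 4.35 to 4.41) and for Upk3b (3.42, others 5.67 to 6.03), and high for the cytokine Tnf (4.20, others 4.08 to 4.09, all near the background). Ozone replicate 6 also had the highest spike level of the 9 arrays, 11.58. Ozone replicate 3 was high for Col14a1 (6.03, others 3.35 to 3.77), Nqo1 (8.53, others 6.96 to 7.18) and the T cell coreceptor Cd8a (9.04, others 5.58 to 6.10). After air, replicate 3 was low for Adgre1 (4.88, others 6.33 to 6.67), replicate 6 was low for the pericyte receptor Pdgfrb (6.60, others 7.92 to 8.34), and replicate 5 was high in the actin difference (3.74, others 2.12 to 2.43).

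Ozone responses that differed between SP-D-/- and C57BL/6 by the test of the difference were those of Car3 (5.75), an immunoglobulin kappa variable segment (3.04), Tmem35a (-2.64), Efcab10 (-2.36), AU021092 (-2.19) and Atp6v1b1 (-2.16), and against BALB/c that of Dnajb13 (-2.53), all in log2 units.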

How the results depend on the processing

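The 91 calls between ozone and air became 86 with cyclic loess (44 rises and 42 falls), 86 with the mean of probe sets, 84 without a filter, 92 with a trended and robust prior, 65 with the spike level, 122 with the actin difference and 82 with both as covariates. They became 4 with only the groups compared, 853 with array weights (48 of the 91 among them), 310 without the 5 arrays of doubtful label, 192 without them and with the spike level, 10 without ozone replicates 1 and 6, and 6 to 948 without single arrays. With the replicate block, in which shared numbers are not known to mean a shared animal, there was 1 (Ucp1), and 2 of 3 ozone arrays correlated best with the air array of their own number. The count of differences from C57BL/6 (6) was 103 with array weights, 10 without the doubtful arrays and with the spike level, and 0 to 16 without single arrays. The count of differences from BALB/c (1) was 0 with cyclic loess, with only the groups compared, with the spike level, with the actin difference, and without the doubtful arrays and with the spike level, 1135 with array weights, and 0 to 23 without single arrays. The count of differences from no allergen (0) was 2 with only the groups compared, 130 with array weights and 0 to 8 without single arrays. Over the 24 named genes and 22 alternatives, 346 of 528 kept direction and call, 181 lost the call, and 1 turned: Acer2, 0.0169 without ozone replicates 1 and 6. The ozone minus air difference in spike level was 0.54 to 1.13 and in actin difference 0.026 to 0.45 without single arrays. The cause of these shifts was not tested. Signals near 4.45 lie close to background and limit the size of a change, and 4 against 5 arrays limit its precision.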

Other observations

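Several genes of the thymus were highest on ozone replicate 3. Rag1, the recombinase of developing lymphocytes, had 6.64, 8.12, 4.24 and 4.88 in ozone replicates 1, 3, 4 and 6, against 4.02 to 5.16 after air, and was among the calls (1.56 ± 0.38, adjusted p = 0.0329 with limma). Dntt, which adds bases at receptor gene joints, had 6.13, 8.99, 5.25 and 5.72 after ozone, against 4.98 to 5.93 after air. Ccl25, a chemokine of thymus and gut, had 6.12, 8.29, 6.66 and 5.80 after ozone, against 5.09 to 6.14 after air, and Themis, a signalling protein of thymocytes, had 4.25, 6.80, 4.38 and 3.41 after ozone, against 3.30 to 4.43 after air. All 4 genes were highest in ozone replicate 3, and Rag1 in replicate 1 and Ccl25 in replicate 4 also lay above every air array. Dntt, Ccl25 and Themis were not called with all arrays (adjusted p = 0.103, 0.0894 and 0.173 with limma). A thymus list written after the data were seen (8 genes tested) had means of 5.23, 6.77, 5.0 and 5.55 after ozone, against 4.73 to 5.29 after air, and 4.46 to 6.04 in the other 80 arrays. By these means ozone replicates 3 and 6 lay above every air array. Of the 8 genes, 1 was called (Rag1), 7 had positive changes, and the median change was 0.85. Ptcra had a change of 0.26, and Cd1d1 had a negative change of -0.68.

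Keratins of squamous epithelium followed another pair of arrays. Krt4 had 5.38, 10.73, 4.96 and 11.23 in ozone replicates 1, 3, 4 and 6, against 4.31 to 5.31 after air (3.34 ± 1.21, adjusted p = 0.149), and Krt14 had 4.35, 6.93, 4.07 and 7.28 after ozone, against 3.91 to 4.26 after air (1.61 ± 0.65, adjusted p = 0.204). The list of stressed epithelium keratins had 0 of 13 genes called and means of 7.43, 8.81, 7.35 and 8.86 in ozone replicates 1, 3, 4 and 6. Replicates 3 and 6 were also the highest for the skeletal muscle list, at 9.17 and 8.70. Whether these signals share a source was not tested.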
